A study of Danio rerio with 73 samples.

Results

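The chromosome 18 amplicon is a stretch of 385 bp, chr18:39655137-39655521 on GRCz10, in which 15 CpGs were read by bisulfite amplicon sequencing of zebrafish gonads. Its members were the CpGs within these bounds that had at least 10 reads in at least 50% of the fish. All 15 CpGs listed there passed, out of 324 CpGs that passed in the whole study, and each had a level in 69 of 73 fish. The other 4 fish had between 1 and 5 reads at these CpGs and carry no level, and the shallowest fish with a level had 26 reads at most of them. No CpG near the stretch lay just outside the bounds. The closest one listed was 261580 bp before it, with reads in 3 fish. The stretch was chosen by its measured methylation levels, with the differences between testis and ovary, between rearing temperatures in testis and between title prefixes in testis already known. Those differences are therefore given as levels, with no test.

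The study compared mature gonads of AB strain zebrafish, a laboratory line, 90 days old. Rearing was at 28 °C (treatment label LT) or 36 °C (HT) during gonadal development. There were 43 testis and 30 ovary libraries, 1 per fish, and the titles carry a prefix, 128 or 204, that the labels do not explain. Ovaries came from 9 fish at 28 °C with prefix 128, 9 at 28 °C with prefix 204 and 12 at 36 °C with prefix 204. Testes came from 13 fish at 28 °C with prefix 128, 10 at 28 °C with prefix 204, 12 at 36 °C with prefix 128 and 8 at 36 °C with prefix 204. The labels do not tie fish to tanks or families, so each p-value reflects how much these fish vary among themselves.

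DNA methylation in vertebrates sits mainly on the cytosine of CpG dinucleotides. Maintenance methyltransferases copy it to the new strand when cells divide, and nearby CpGs often share their state. Methylated promoters are usually associated with silent genes, and germ cells and somatic cells of the gonad carry different methylation patterns. Bisulfite converts unmethylated cytosine to uracil, which is read as T, while methylated cytosine is still read as C. The methylation level of a CpG is the percent of reads that kept the C. A whole gonad was sampled, so a level between the extremes cannot tell a mixture of methylated and unmethylated cells from partial methylation in each cell. The panel targeted promoter regions of 18 genes. Gene annotation of GRCz10 was not used here, so the stretch is named by its position and no exon, intron or UTR is assigned.

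All 15 CpGs were read on the minus strand. They are numbered 1 to 15 by rising position, which is from the 3′ to the 5′ end of the strand that was read. The letters around them are known only where the deposited calls give them, that is the CpG and the base after it. The 4 groups of closely spaced CpGs are shown because 5 of the 6 neighbouring pairs that passed the test in at least 4 groups lie within or between them. They are written 5′ to 3′ on the minus strand, with each CpG in capitals and n for a base that the calls do not give.
CpGs 15 to 13, chr18:39655508-39655521: CGannnCGtnnCGc
CpGs 12 and 11, chr18:39655399-39655404: CGaCGc
CpGs 10 and 9, chr18:39655362-39655369: CGcnnCGt
CpGs 6 to 3, chr18:39655200-39655215: CGgnnCGtnnCGgCGa
CpGs 1 (39655137), 2 (39655163), 7 (39655259) and 8 (39655297) stand alone. The density was 3.9 CpGs per 100 bp, and the spacing between neighbours ran from 3 bp to 106 bp.

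Depth was high at nearly every CpG. The median over fish was 13667 reads at CpG 8 and between 15895 and 16098 reads at the other 14. CpG 8 had a median of 84.9% of the depth of the others within a fish. In the shallowest fish, testis fish 9 at 28 °C with prefix 204, 4 of 26 reads were methylated at CpG 2, or 15.4% (95% Wilson interval 6.15 to 33.5). Reads of 1 PCR are not independent molecules, so such intervals cover counting error only. In the 8 amplicons of the panel whose mean was below 5%, single fish with a level at the stretch lay between 0.492% and 3.40%.

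Levels of the stretch fell into a low range and a high range. The level of a fish is the mean over the 15 CpGs. Ovaries at 28 °C with prefix 128 averaged 30.6% ± 12.1 (SD, n = 8), with 18.5% the lowest, 28.1% the median and 52.0% the highest fish. Ovaries at 28 °C with prefix 204 averaged 32.4% ± 6.13 (n = 9, lowest 23.7%, median 31.8%, highest 45.1%). Ovaries at 36 °C averaged 32.1% ± 7.39 (n = 11, lowest 23.6%, median 31.6%, highest 48.9%). The 3 ovary groups overlapped nearly throughout.

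Testes at 28 °C with prefix 204 averaged 38.7% ± 7.75 (n = 8), with 25.1% the lowest, 40.8% the median and 49.1% the highest. They overlapped with the ovaries and with no fish of the high range. Testes at 28 °C with prefix 128 averaged 87.1% ± 20.6 (n = 13), and testes at 36 °C with prefix 204 averaged 81.2% ± 24.4 (n = 8). These 2 groups were split, so their means describe no single fish. In the first, 11 fish lay between 92.6% and 96.6%, fish 20 was at 41.4% and fish 22 at 40.4%. In the second, 6 fish lay between 91.2% and 95.9%, fish 1 was at 35.5% and fish 17 at 48.8%. Testes at 36 °C with prefix 128 averaged 95.8% ± 1.14 (n = 12), from 92.9% to 97.0%, with no fish in the low range.

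**Figure D1:**
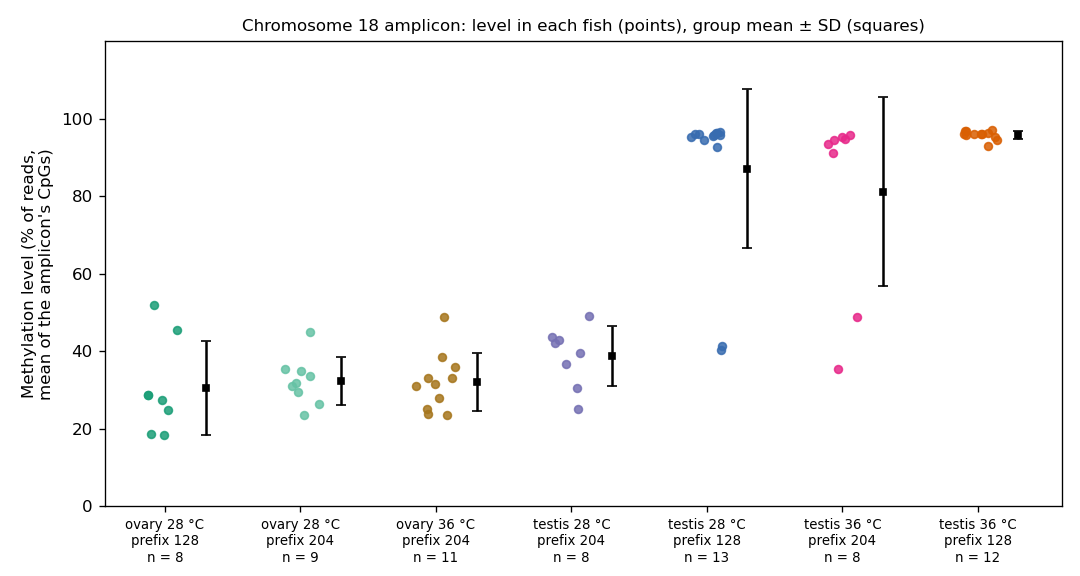
Methylation level of the stretch (% of reads, mean of the 15 CpGs) in each fish, by tissue, rearing temperature and title prefix; points are fish, squares and bars the mean ± SD, which runs past 100% in the 2 split groups. Ovaries and testes at 28 °C with prefix 204 lie between 18.5% and 52.0%, and most fish of the other testis groups lie at 91.2% or above.

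The whole stretch took part in the differences between groups. Testes exceeded ovaries at 28 °C with prefix 128 by 51.6 points at the least different CpG (CpG 13) and by 59.3 points at the most different (CpG 1). At 28 °C with prefix 204 the range over CpGs was 3.03 to 10.02 points, with CpG 2 and CpG 3 at its ends. At 36 °C with prefix 204 it was 46.8 points at CpG 13 to 50.8 points at CpG 3. Testes at 36 °C exceeded those at 28 °C by 35.5 points (CpG 6) to 47.0 points (CpG 12) with prefix 204. With prefix 128 they exceeded them by 7.44 points (CpG 6) to 9.87 points (CpG 12), with the 2 low fish among the 13 at 28 °C included. These means rested on the 2 low fish. The medians over the stretch were 95.7% at 28 °C and 96.0% at 36 °C. The other 11 fish at 28 °C, at 92.6% to 96.6%, overlapped with the 92.9% to 97.0% at 36 °C. CpG 6 or CpG 13, the 2 most methylated CpGs in each ovary group, had the smallest difference in points in 4 of the 5 comparisons.

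Inside each fish the CpGs did not stand at one level. CpG 12 (39655404, followed by A) was the trough. It had the lowest mean of the 15 CpGs in all 7 groups and lay below the fish's own mean in 69 of 69 fish, and it was the lowest CpG of all in 29 of them. Its levels ran from 14.6% through a median of 24.1% to 46.0% in ovaries with prefix 128 and from 18.4% through 25.2% to 38.9% in ovaries at 28 °C with prefix 204. In ovaries at 36 °C they ran from 17.2% through 28.3% to 42.5%. These ovary groups overlapped at CpG 12 as they did over the whole stretch. In testes at 28 °C with prefix 204 CpG 12 ran from 19.2% through 33.0% to 38.2%. In testes at 36 °C with prefix 128 it ran from 90.6% through 95.04% to 96.2%, high in each fish, and it was the lowest CpG of the stretch in 4 of 12.

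CpG 6 (39655215, followed by G) and CpG 13 (39655510, followed by C) were the peaks. Each lay above the fish's own mean in 67 of 69 fish, and 1 of them was the highest of the 15 in 59 fish. CpG 6 averaged 35.6% ± 13.8, 39.7% ± 7.66 and 37.5% ± 9.40 in ovaries with prefix 128, ovaries at 28 °C with prefix 204 and ovaries at 36 °C. CpG 13 averaged 37.8% ± 11.3, 38.9% ± 6.63 and 37.5% ± 7.34 in the same groups. In testes at 28 °C with prefix 204, CpG 6 averaged 48.8% ± 8.98 and CpG 13 averaged 43.2% ± 11.3. In testes at 36 °C with prefix 128, the 2 peaks averaged 96.6% ± 0.928 and 97.2% ± 0.775. The peaks therefore stood well apart from the trough in the low groups and by few points in the high ones.

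CpG 8 (39655297) lay below the fish's own mean in 60 of 69 fish, CpG 14 (39655515) in 54 and CpG 3 (39655202) in 52. CpG 8 averaged 29.6%, 28.3% and 29.7% in the ovary groups in the order above, 36.0% in testes at 28 °C with prefix 204 and 95.6% in testes at 36 °C with prefix 128. CpG 14 averaged 28.9%, 28.9% and 30.4% in ovaries, 33.7% and 95.8% in those testes. CpG 3 averaged 29.0%, 30.8% and 30.1% in ovaries, 40.8% and 94.98% in those testes. CpG 3 was thus among the low CpGs in ovary and above the mean of the stretch in testes at 28 °C with prefix 204.

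The remaining 9 CpGs were less uniform, and in single groups some lay beyond those named above. In ovaries with prefix 128, CpGs 1 and 2 were below CpGs 3, 8 and 14. In testes at 28 °C with prefix 204, CpG 7 averaged 45.5%, above the 43.2% of CpG 13, but its median of 45.7% was below the 46.7% of CpG 13. The shallowest fish, fish 9 with 26 reads at both, had 42.3% at CpG 7 and 19.2% at CpG 13. In testes at 36 °C with prefix 128, CpG 10 averaged 96.97%, above CpG 6. CpG 10 (39655369), 5 bp after CpG 9, was above the fish's own mean in 51 of 69 fish and averaged 31.3%, 32.1% and 32.8% in ovaries. CpG 9 (39655364) was above it in 20 fish and averaged 29.6%, 29.1% and 30.7%. CpGs 4 (39655205) and 5 (39655210), next to the peak at CpG 6, were above it in 49 and 46 fish. CpG 4 averaged 31.1%, 35.6% and 32.3% in ovaries, and CpG 5 averaged 31.6%, 33.3% and 32.4%. The outer CpG 1 averaged 28.4%, 33.2% and 32.9% there and CpG 2 averaged 28.4%, 31.3% and 31.2%. At the other end, CpG 15 (39655521) averaged 30.3%, 31.6% and 30.3%. CpG 11 (39655401), 3 bp from the trough, averaged 29.4%, 30.2% and 31.4%, above CpG 12 in all 3 groups. CpG 7 (39655259) averaged 30.2%, 37.0% and 34.4% and was above the fish's own mean in 39 of 69 fish.

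**Figure D2:**
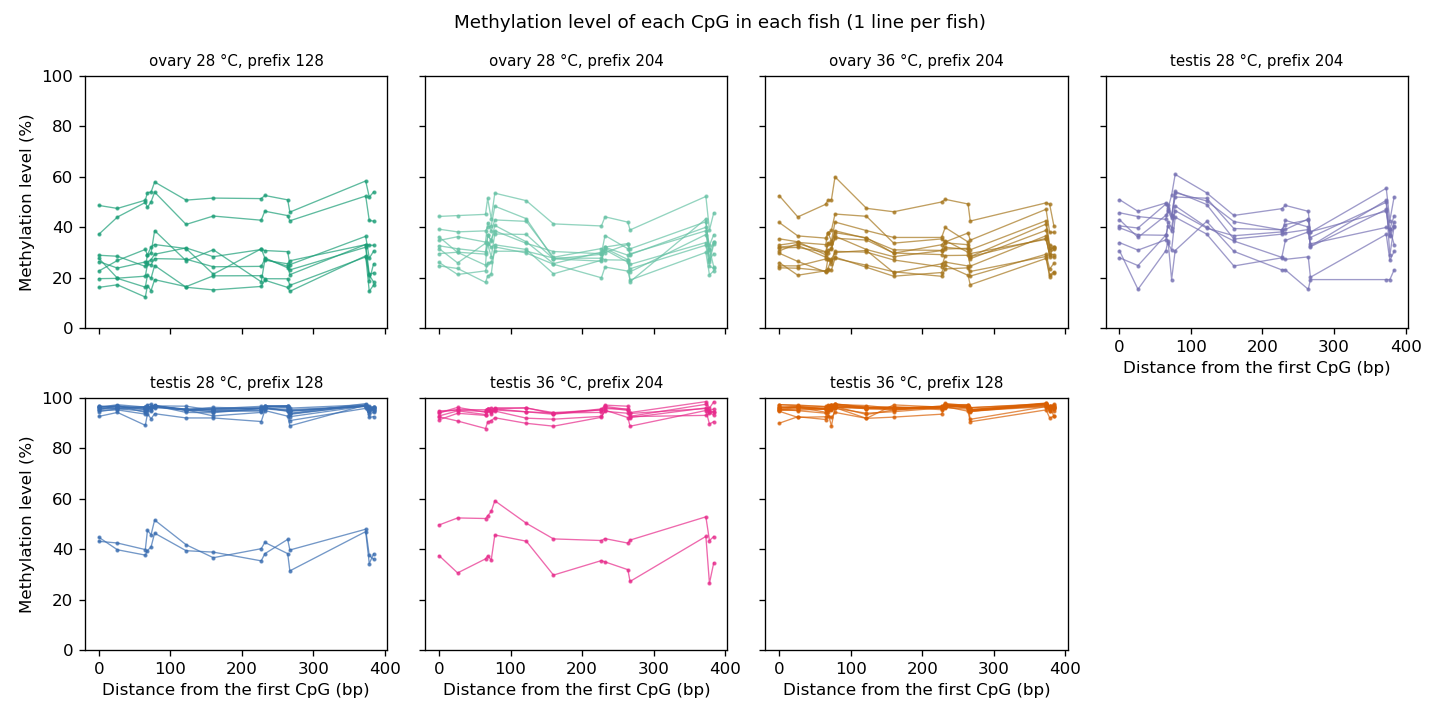
Methylation level (% of reads) of each of the 15 CpGs against its distance in bp from the first CpG, 1 panel per group and 1 line per fish. In the low groups CpGs 6 and 13 lie above the fish's mean in most fish, while the lines vary in shape from fish to fish. The 4 low fish of the split testis groups, at 35.5% to 48.8%, are highest at CpG 6 or CpG 13.

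In each of the 4 low fish of the split testis groups, the highest CpG was CpG 6 or CpG 13. CpG 12 was the lowest CpG in 1 of them, fish 20, and lay just under the fish's mean in fish 22. Fish 20 at 28 °C with prefix 128 had 51.6% at CpG 6, 31.4% at CpG 12 and 47.0% at CpG 13. Fish 22 of that group had 46.4%, 39.7% and 47.9% at these CpGs. Fish 1 at 36 °C with prefix 204 had 45.7%, 27.2% and 45.1%, and fish 17 had 59.2%, 43.6% and 52.9%. In each of the 4, CpG 13 exceeded CpG 12, by 8.24 to 17.9 points. They were singled out by their level, so these are values and no group.

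The step between CpG 12 and CpG 13 was more alike between groups on a scale that allows for the ceiling than in points. In points, CpG 13 exceeded CpG 12 by 10.8 ± 2.35 in ovaries with prefix 128 (SD, n = 8) and by 2.64 ± 1.19 in testes at 36 °C with prefix 128 (n = 12). As odds of methylation, the geometric mean ratio of CpG 13 to CpG 12 was 1.71 in the first and 1.98 in the second. The other groups had odds ratios of 1.81 (ovaries at 28 °C with prefix 204), 1.57 (ovaries at 36 °C), 1.68 (testes at 28 °C with prefix 204), 2.03 (testes at 28 °C with prefix 128) and 2.06 (testes at 36 °C with prefix 204). In testes at 36 °C with prefix 128 this meant 2.81% of reads unmethylated at CpG 13 and 5.45% at CpG 12. Single fish had odds ratios from 1, in testes at 28 °C with prefix 204, to 4.28, in testes at 28 °C with prefix 128. The ratio of 1 was that of the shallowest fish, fish 9, with 5 of 26 reads methylated at both CpGs. Over the 21 pairs of groups, the correlation of the 15 profile values ran from 0.285 to 0.946 in points (median 0.824) and from 0.307 to 0.954 in log2 odds (median 0.807). Over all 15 CpGs the profiles were thus no more alike in log2 odds than in points. The lowest value on both scales was that of testes at 28 °C with prefix 204 and testes at 36 °C with prefix 128. The CpGs share libraries and reads, so these correlations are a description.

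**Figure D3:**
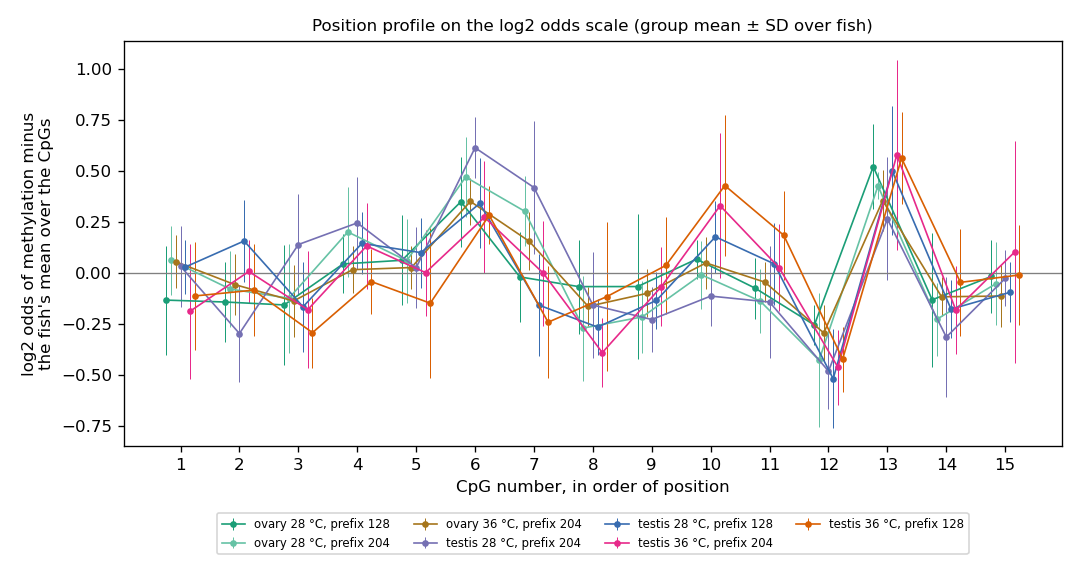
Position profile: for each CpG in order of position, the log2 odds of methylation minus the fish's mean over the 15 CpGs, as group mean ± SD over fish. CpG 12 lies below 0 and CpGs 6 and 13 above 0 in all 7 groups, while CpG 7 lies above 0 in some groups and below it in others.

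The 2 ends of the stretch differed in some groups. The first 7 CpGs exceeded the last 8 by 5.11 points ± 2.20 in testes at 28 °C with prefix 204, in 8 of 8 fish, and by 3.70 ± 3.81 in ovaries at 28 °C with prefix 204, in 8 of 9. In ovaries at 36 °C the difference was 1.62 ± 1.40, with the first end higher in 10 of 11. In ovaries with prefix 128 it was 0.113 ± 2.73, with 4 of 8 fish on each side. In testes at 36 °C with prefix 128 the first end was higher in 2 of 12 fish, and the mean difference was -0.508 ± 0.797. In testes at 28 °C with prefix 128 it was 0.868 ± 1.61 (median 0.273), with the first end higher in 12 of 13 fish. In testes at 36 °C with prefix 204 it was 1.45 ± 3.30 (median 0.101), with the first end higher in 5 of 8. The split was placed after the profile was seen, and no test was made of it.

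Differences between neighbouring CpGs were tested within each group, since the choice of the stretch used differences between groups and not within a fish. The test was a two-sided exact sign-flip test over fish, adjusted by Benjamini-Hochberg over all neighbouring pairs of the panel, with a threshold of 0.05. In ovaries, 4 of 14 pairs passed with prefix 128 against 16.9% of all pairs of the panel, 7 of 14 at 28 °C with prefix 204 against 18.8%, and 8 of 14 at 36 °C against 24.8%. The 4 calls with prefix 128 fell to 0 when CpGs had to be covered in 80% of fish. That filter kept every CpG of the stretch, so only the panel pairs that entered the adjustment changed. In testes, 8 of 14 passed at 28 °C with prefix 128 against 24.2% and 7 of 14 at 36 °C with prefix 128 against 18.8%. In testes with prefix 204, 0 of 14 passed at 28 °C against 9.93% of the panel and 0 of 14 at 36 °C against 0% of it. Unadjusted p-values were under 0.05 for 7 and 10 of their 14 pairs, but the panel's share at that threshold was not counted. Limma called 5 and 1 after adjustment, against 14.2% and 4.38% of the panel by limma. In testes at 28 °C with prefix 128, limma called 3 of the 14, against 8.72%. With 8 fish the smallest p of the test was 0.00781. The median absolute difference between neighbours was 1.79, 2.85 and 2.17 points in the ovary groups in the order above, against 0.375, 0.329 and 0.363 points in the other amplicons. In testes with prefix 204 it was 4.66 points at 28 °C and 1.73 at 36 °C, against 0.412 and 0.313. In testes with prefix 128 it was 1.35 points at 28 °C and 0.697 at 36 °C, against 0.26 and 0.149 in the other amplicons. Those 19 amplicons include 8 with means below 5%, where levels leave little room for a difference in points. No comparison with amplicons of like level was made.

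Pairs that passed in at least 4 groups numbered 6. With 8 fish the smallest sign-flip p is 0.00781. In testes with prefix 204 it became 0.0549 at 28 °C and 0.0703 at 36 °C after adjustment. No pair of the stretch could pass in those groups, so 5 groups was the most a pair could reach. The share of the panel's pairs that passed in at least 4 groups was not counted. The widest step ran from the trough at CpG 12 to the peak at CpG 13 over 106 bp, upward in 68 of 69 fish. It rose by 12.5 points ± 5.05 in ovaries at 28 °C with prefix 204 (9 of 9 fish, exact sign-flip test, adjusted p = 0.0284) and by 9.57 ± 2.68 in ovaries at 36 °C (11 of 11, exact, adjusted p = 0.00722). The step passed in 5 groups, as did the next one, from CpG 13 down to CpG 14 over 5 bp. That one fell by 9.985 points ± 3.59 in ovaries at 28 °C with prefix 204 (9 of 9 fish, exact, adjusted p = 0.0284) and by 1.44 ± 0.907 in testes at 36 °C with prefix 128 (11 of 12 fish, exact, adjusted p = 0.0102).

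From CpG 5 up to CpG 6, also 5 bp apart, levels rose in 66 of 69 fish and passed in 5 groups. The rise was 3.97 points ± 2.41 in ovaries with prefix 128 (8 of 8 fish, exact, adjusted p = 0.0462) and 6.38 ± 3.33 in ovaries at 28 °C with prefix 204. In testes at 28 °C with prefix 204 the difference was 9.61 points ± 1.92, in 8 of 8 fish, and did not pass (exact, adjusted p = 0.0549). The other 3 pairs passed in 4 groups each. CpG 4 exceeded CpG 3, 3 bp away, in 57 of 69 fish, with group means of 0.793 to 4.87 points. CpG 7 was below CpG 6 in all but 5 of 69 fish, with group means of -5.33 to -1.52 points, and CpG 12 was below CpG 11 in all but 3, with group means of -5.475 to -1.87 points.

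CpG 7 to CpG 8, 38 bp apart, was a step in some groups. Levels fell by 8.64 points ± 4.59 in ovaries at 28 °C with prefix 204 (9 of 9 fish, exact, adjusted p = 0.0284) and by 4.67 ± 2.85 in ovaries at 36 °C (11 of 11, exact, adjusted p = 0.00722). In ovaries with prefix 128 the mean difference was -0.615 ± 4.96, with CpG 8 higher in 4 of 8 fish. In testes with prefix 204 it was -9.49 ± 3.77 at 28 °C and -3.35 ± 4.49 at 36 °C, with CpG 8 higher in 0 of 8 fish each. Neither passed (exact sign-flip test, adjusted p = 0.0549 and 0.0703). In testes with prefix 128 it was -0.726 ± 1.61 at 28 °C and 0.496 ± 1.70 at 36 °C. A test of the difference between the 2 ovary groups at 28 °C, added after these values were seen, gave -8.03 points (SE 2.33, exact permutation p = 0.00506, adjusted p = 0.175) and did not pass. Between these groups 0 of 14 pairs of the stretch passed, against 2.17% of 276 pairs in the panel. Unadjusted p-values were under 0.05 for 2 of the 14, against 10.1% of the panel. Between ovaries at 36 °C and 28 °C with prefix 204, 0 of 14 passed, against 0% of the panel by the adjusted exact test. Unadjusted p-values were under 0.05 for 3 of the 14, against 5.80% of the panel.

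Neighbouring CpGs rose and fell together from fish to fish. Pearson r between neighbours had a median over the 14 pairs of 0.976 (0.872 to 0.994) in ovaries with prefix 128, 0.871 (0.706 to 0.961) in ovaries at 28 °C with prefix 204 and 0.954 (0.907 to 0.991) in ovaries at 36 °C. The medians over neighbouring pairs of the other amplicons, 8 of which had means below 5%, were 0.271, 0.126 and 0.215. By a permutation test of r, exact in the groups under 10 fish and adjusted over all pairs of the panel, 14, 7 and 14 of the 14 pairs passed. The panel's shares were 17%, 5.07% and 16.8%. Spearman's rho passed for 7, 3 and 14 pairs, and the panel's share for rho was not counted. The 2 values of a pair come from the same reads, and the spread between fish in this stretch was wide, so r describes how much of that spread neighbours share.

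CpG 11 and the trough, 3 bp apart, were among the closely correlated pairs. In ovaries at 36 °C they had r = 0.985 and rho = 0.982 over 11 fish, with permutation p of 1e-05, the smallest that the resamples can give, for r and 2e-05 for rho, or 0.000252 and 0.000866 adjusted. Without the 2 fish farthest from the median r was 0.971. Among neighbouring pairs in the ovary groups, the lowest r was that of CpG 12 and CpG 13 at 28 °C with prefix 204, with r = 0.706 and rho = 0.467 over 9 fish (exact permutation, adjusted p = 0.180 and 0.645). There r was 0.891 without the 2 farthest fish. Leaving out those fish lowered the median r to 0.853, 0.736 and 0.919 in the 3 ovary groups, and single pairs fell as far as 0.262 in ovaries with prefix 128 and 0.0729 in ovaries at 28 °C with prefix 204. In those pairs the size of r depended on the outer fish, and leaving them out narrows the spread, which by itself tends to lower r.

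In testes the correlations were taken within the larger set of fish where the levels left a gap of over 20 points. The median r was 0.856 at 28 °C with prefix 204 (8 fish), 0.824 at 28 °C with prefix 128 (11 of 13 fish), 0.895 at 36 °C with prefix 204 (6 of 8 fish) and 0.719 at 36 °C with prefix 128 (12 fish). The pairs that passed numbered 6, 9, 4 and 6 of 14, against 9.93%, 32.4%, 25.5% and 25.8% of the panel. By Spearman's rho 2, 2, 0 and 6 passed, where the panel's share for rho was not counted. The medians of r in the other amplicons were 0.264, 0.396, 0.783 and 0.354. Without the 2 farthest fish the medians were 0.802, 0.275, 0.574 and 0.465. In the 3 groups near the ceiling, the size of r thus depended on the outer fish for many pairs. Leaving such fish out narrows the spread, which by itself tends to lower r, and few of the 6 fish at 36 °C with prefix 204 then remained. Whether neighbours were related among the inner fish can therefore not be decided.

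In the ovary groups the median correlation of levels was lower in the classes of pairs farther apart, most at 28 °C with prefix 204. No test was made of this, and the ranges of the classes overlapped in each ovary group. In ovaries at 36 °C, r ran from 0.907 to 0.991 up to 50 bp and from 0.828 to 0.984 beyond 150 bp. In ovaries at 36 °C the median r was 0.952 for the 22 pairs of CpGs up to 50 bp apart, 0.940 for the 32 pairs 51 to 150 bp apart and 0.933 for the 51 pairs farther apart. In ovaries at 28 °C with prefix 204 the medians were 0.898, 0.835 and 0.785, and in ovaries with prefix 128 they were 0.978, 0.954 and 0.949. The testis medians, in the larger set of fish where levels were split, did not all fall. They were 0.869, 0.847 and 0.864 at 28 °C with prefix 204 and 0.818, 0.819 and 0.862 with prefix 128. At 36 °C they were 0.906, 0.87 and 0.753 with prefix 204 and 0.761, 0.683 and 0.727 with prefix 128. After each fish's mean over the stretch was subtracted, the medians were 0.403, -0.0208 and -0.357 in ovaries with prefix 128, 0.357, 0.125 and -0.350 in ovaries at 28 °C with prefix 204, and 0.0313, -0.0560 and -0.207 in ovaries at 36 °C. Subtracting a mean makes some of these values negative by construction. After the subtraction, the median was highest for the closest pairs in all 3 ovary groups and in both testis groups at 36 °C, but not in testes at 28 °C. In testes at 28 °C with prefix 128 the medians after subtraction were -0.153, -0.0781 and 0.00194, and with prefix 204 they were -0.0215, 0.0718 and -0.0838.

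**Figure D4:**
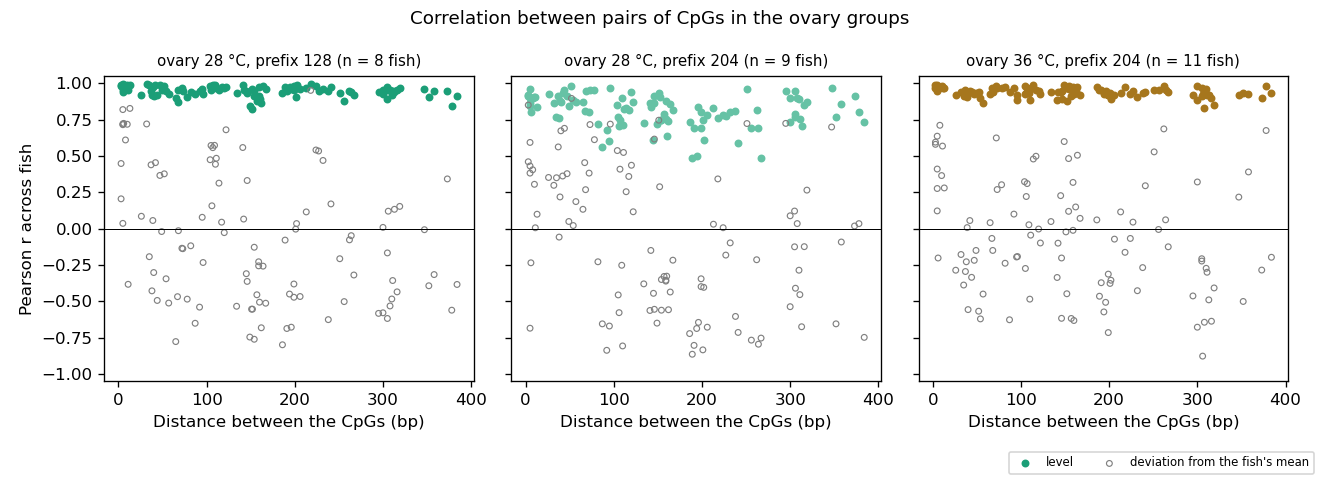
Pearson r across fish for each of the 105 pairs of CpGs in the 3 ovary groups, against the distance between the CpGs in bp; filled points are levels, open points deviations from the fish's mean over the stretch. Every r of levels is 0.824 or higher in ovaries with prefix 128 and ovaries at 36 °C, while deviations scatter around 0 and are mostly negative beyond 150 bp.

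Between the ovary groups no difference passed. The choice of the stretch did not use these contrasts, but the ovary levels entered the known differences between testis and ovary. Ovaries at 28 °C with prefix 204 exceeded those with prefix 128 by 1.88 points over the stretch (SE 4.73, exact permutation test, adjusted p = 0.885), where 5.56% of 18 amplicons passed, before and after adjustment. None of the CpGs passed, 0 of 15 against 3.74% of 294 CpGs in the panel, and 0 had an unadjusted p under 0.05, against 12.9% of the panel. Limma and the quasi-binomial model also called 0 of 15. The mean was higher with prefix 204 at 12 CpGs and lower at 3. CpG 7 differed most, by 6.73 points (95% interval -3.40 to 16.9, adjusted p = 0.646 by the exact permutation test), with means of 37.0% and 30.2%. At CpG 12 the difference was -0.653 points (95% interval -10.4 to 9.13).

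Ovaries reared at 36 °C and at 28 °C, both with prefix 204, had means of 32.1% and 32.4% over the stretch, a difference of -0.346 points (SE 3.02, exact permutation test, adjusted p = 0.930). Of 18 amplicons, 0% passed after adjustment and 27.8% before it. Of the CpGs, 0 of 15 passed the exact test, against 0% of 294 in the panel, and 0 of 15 had an unadjusted p under 0.05, against 6.80%. Limma and the quasi-binomial model called 0 of 15 here too. The mean was higher at 36 °C at 6 CpGs and lower at 9. CpG 4 differed most, by -3.32 points (95% interval -11.4 to 4.71), with means of 32.3% and 35.6%. These intervals leave room for differences of several points in either direction, and at CpG 4 for one as far down as -11.4 points. Whether temperature acted differently in ovary and testis was not tested, because the testis values chose the stretch.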

How the data were processed

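Per the labels' protocols, gonad DNA was bisulfite-converted, amplified in multiplex and sequenced on an Illumina HiSeq instrument. The authors deposited 1 table per fish with whole-number counts of methylated and unmethylated reads per CpG, not normalized. Trim Galore 0.4.5, FastQC 0.11.6, Bowtie2, Bismark 16.0 and GRCz10 are named in the submitters' processing notes. Whether PCR duplicates were removed is not stated there.

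From the counts, the percent methylated was computed per CpG and fish at 10 or more reads. CpGs reaching it in 50% of fish made up 20 amplicons with 323 CpGs, in which neighbours lie at most 200 bp from each other. The level of an amplicon is the mean of its CpGs. Log odds used 0.5 added to each count. Depth was 23 to 57137 reads per CpG and fish in the stretch, among fish with a level, and total calls per fish were 1404 to 12565602. Pairs of libraries with the same counts numbered 0. The fish was the unit of replication.

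Group differences were tested by exact permutation, neighbour differences by exact sign flips and correlations by permuted pairings (100000 resamples at 10 or more fish). All were adjusted by Benjamini-Hochberg over the whole panel at 0.05, with at least 5 fish per side, or 6 for neighbours. Intervals of differences are 95% intervals from the SE and Student's distribution. Members, lists and tests were chosen with earlier results of these data known. Named are the highest, lowest and most different CpG of each comparison and each neighbouring pair past the threshold in at least 4 groups. CpGs 7 to 8 and the 4 low testis fish were chosen after their values were seen, as were limma and log odds for neighbours, the split into ends, the distance classes and the test of neighbours between ovary groups. Gene names for the listed gonad genes were not assigned, since no promoter sequence of this build was used here.

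Alternatives were a depth of at least 5, 30 or 100 reads, coverage in 80% of fish, pooled counts, a quasi-binomial model, limma 3.58.1, a replicate block, log odds and each ovary fish left out. The tests were tested on simulated data. Python 3.11.15, scipy 1.17.1 and R 4.3.3 were used.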

Additional observations from a re-analysis of the deposited data

Results flagged for a closer look

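At CpG 8 (chr18:39655297), fish 16 of the ovaries at 28 °C with prefix 204 had 41.3% methylation, and the next highest of the 9 fish had 30.4%. The gap was 0.553 of the group's range, above Dixon's 95% critical value of 0.493. The value rests on 46615 reads. The fish had the highest level of its group over the whole stretch, 45.1%. Chance flags about 1 in 20 groups, and 64 groups of values were examined. The cause was not tested.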

How the results depend on the processing

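Of the recomputed values, 194 kept their direction and their side of the threshold or stayed within the limits set, 9 counts moved by more than 1.5 times and 6 differences changed sign. The level of testes at 28 °C with prefix 204 ran from 38.2% to 40.7% over the alternatives. The low end adds 1 fish at a minimum of 5 reads and the high end leaves 1 out. Between ovaries with prefixes 204 and 128, 11 CpGs of the panel passed. The quasi-binomial model gave 22, limma 7 and the replicate block 0 from 2 pairs. With 2 pairs the smallest p of the block's sign-flip test is 0.5. Its 0 was therefore fixed in advance and is no check of the calls, though it is 1 of the 9 counts that moved. The difference over the stretch was 3.93 points with the block and ran from 0.165 to 4.945 as each fish was left out, with 10 to 13 CpGs of the panel called. Between ovaries at 36 °C and 28 °C, 0 CpGs of the panel passed by the exact test, 20 at an unadjusted p under 0.05, 0 by limma and 4 by the quasi-binomial model. Leaving out each fish in turn gave 0 to 1 (1 without fish 16 at 36 °C), and the difference over the stretch ran from -2.02 to 1.24 points with adjusted p from 0.539 to 0.993. It turned positive without fish 5 (0.338), 10 (0.474), 15 (0.0731) or 20 (0.506) at 36 °C and without fish 6 (0.0347) or 16 (1.24) at 28 °C. No CpG of the stretch was called in any of these fits. The block gave -2.43 points from 6 pairs. Same-numbered fish had correlations of 0.159 and 0.456 between prefixes and of -0.154 to 0.105 between temperatures, so the numbers were not taken to pair the fish. Among neighbouring pairs, 0 of 14 instead of 4 passed in ovaries with prefix 128 when CpGs had to be covered in 80% of fish. Limma called 5 instead of 0 in testes at 28 °C with prefix 204, 3 instead of 8 at 28 °C with prefix 128 and 1 instead of 0 at 36 °C with prefix 204. The 80% filter kept every CpG of the stretch, with a level in 69 fish each. It left the unadjusted p-values of the stretch as they were and changed only the panel pairs that entered the adjustment. The causes of the other shifts were not tested. With 8 fish a group, the smallest sign-flip p before adjustment is 0.00781, and the SE of 3.02 to 4.73 points limits what the ovary comparisons could show.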
